A study of Mus musculus with 2 samples.

Results

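Rab proteins are small GTPases of the Ras superfamily that give each membrane compartment of the cell its identity. A Rab is switched on by an exchange factor that loads it with GTP, then recruits effectors (tethers, motor adaptors, lipid enzymes) to its membrane, and is switched off by a GTPase-activating protein; lipid anchors attached by a geranylgeranyl transferase hold it on the membrane, and GDP dissociation inhibitors extract it for reuse. In macrophages Rab proteins direct uptake, phagosome maturation and secretion, and in osteoclasts they carry acidic vesicles to the ruffled border, the folded membrane that faces bone. The members examined here are the probes whose gene name in the scanner files is Rab followed by a number and an optional letter, which leaves out binding partners such as the Rab11 interacting proteins. This rule found 55 genes on 103 probes, out of 28783 gene names on 41174 non-control probes.

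RNA came from RAW 264.7, a mouse macrophage-like cell line that can become osteoclast-like under the cytokine RANKL, and was read on 2 one-colour Agilent whole mouse genome arrays. The control array holds cells kept at ground level, and the RCCS array holds cells loaded for 24 h into a rotary cell culture system, a rotating vessel used to model microgravity. The protocol gives RANKL at 80 ng/ml for 24 h, in wording shared by both samples, and does not settle whether the control cells received it too. With 1 array per condition no difference below has a replicate check, no test between conditions exists and no p-value is given.

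Values are processed signals (background-subtracted intensities), and a log2 ratio is RCCS over control after each array was divided by its own 75th percentile of signal (849 for control, 966 for RCCS). Only probes that the scanner software flagged as well above background on the control and the RCCS array alike were kept as measured, and their log2 ratios were averaged per gene. The 95% interval given with a ratio comes from the error that the scanner software assigns to a spot and covers spots only, not cultures, extraction or labelling. Over all 16023 measured genes the median log2 ratio was -0.13, so a single Rab gene near -0.13 sat with the bulk of the array.

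All 9 macrophage markers were well above background on both arrays, among them Csf1r, Cd68 and Lyz2. Their summed signal was 798626 (control) and 988807 (RCCS), of which Lyz2 gave 486442 and 547485. The signal of all 9 was higher on the RCCS array, among them Itgam (1289 and 5768) and Mpeg1 (24741.4 and 54534.5). Signals, sums and directions in this paragraph are unscaled, and the 75th percentile was 849 for control and 966 for RCCS. Small marker differences can thus change direction after scaling. Of 9 osteoclast markers the RCCS array showed all and the control array 8, without Calcr, with sums of 15792 and 12595. The signal of 5 of these 9 was lower on the RCCS array, among them Dcstamp (1297 and 481) and Ocstamp (1165 and 504), while Ctsk (2225 and 5896) and Acp5 (5713 and 6788) were higher. Of 6 fibroblast or osteoblast markers the control array showed 1 and the RCCS array 5 (sums 193 and 683), and neither showed Pdgfrb. Dcn alone went from 15.2 to 462, and Col1a2 from 101 to 89.3. Lymphocyte markers were above background for 5 of 7 genes on each array (sums 513 and 565; Cd8a and Ms4a1 on neither), and epithelial markers for 3 of 4 and 2 of 4 (sums 161 and 102; Cdh1 on neither). The part of any of these shifts in the Rab values was not tested.

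Of the 55 Rab genes, 45 were measured on both arrays, 2 cleared background on the control array alone, 2 on the RCCS array alone and 6 on neither. The RCCS array had 1 Rab gene higher by 2-fold or more, Rab32, beside 3.88% of all measured genes, and 1 lower to that degree, Rab15, beside 3.78%, so 4.44% of measured Rab genes passed 2-fold where 7.66% of all genes did. With normexp background correction, run with an offset of 50 added to each signal, the Rab share was the same 4.44%. That of all genes was then 4.43% or 4.14%, so the lower Rab share depends on this setting. An added offset draws the ratios of dim genes toward equal signal, and its part in these shares was not tested. As these are bulk samples, fewer cells of a type and less RNA per cell cannot be told apart. The other 43 measured Rab genes lay between -0.79 and 0.62. Within 1.5-fold of equal signal stood 39 of the 45, or 86.7%, beside 75.4% of all measured genes. Several measured probes were averaged for 25 of the 45 Rab genes, and for 5091 of all 16023 genes. The part of this averaging in the narrower Rab spread was not tested. Past 1.5-fold were 4 higher Rab genes (9.74% of all genes) and 2 lower ones (14.9%), where 24.6% of all genes passed in either direction. Among genes whose brighter array gave a probe signal of 100 or more, 40 Rab genes were measured and the same 2 passed 2-fold, or 5%, beside 8.46%. The median Rab log2 ratio was -0.03, 0.10 above the median of all genes, with 20 genes above 0 and 25 below.

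**Figure D1:**
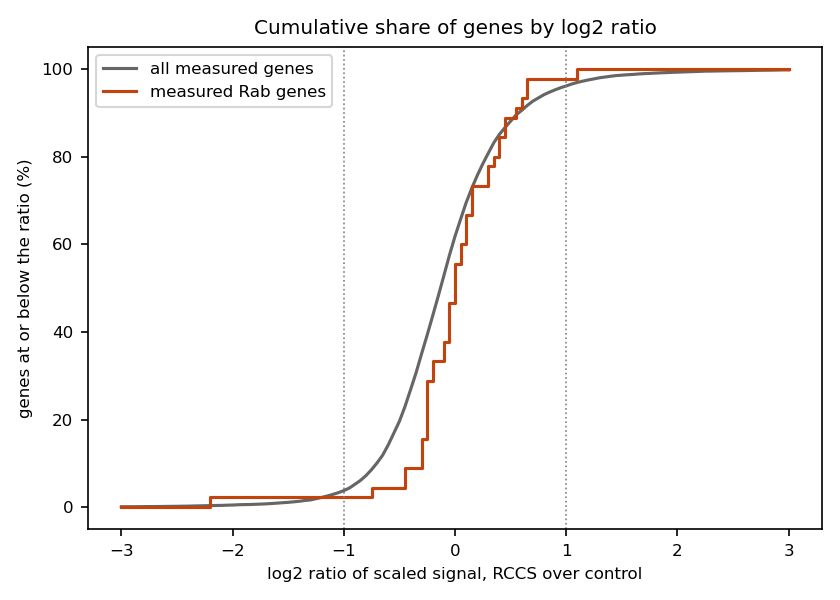
Share of genes (%) at or below each log2 ratio (RCCS over control), for the 45 measured Rab genes and for all 16023 measured genes, with dotted lines at 2-fold. The Rab curve rises more steeply around 0, with 1 gene beyond each dotted line (Rab15 at -2.24 and Rab32 at 1.06).

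The upstream sequences of Rab32 and Rab15, the genes past 2-fold, are shown for reading beside their values. Rab32 belongs, with Rab38 and Rab29, to a branch of the family that serves lysosome-related organelles such as melanosomes and acts in the defence of macrophages against intracellular bacteria. Rab15 is an endosomal Rab that slows recycling of the transferrin receptor and has been studied mainly in nerve cells. The sequences are the 250 bases before the annotated transcription start, 5′ to 3′, from the RefSeq promoter table of build GRCm38.p6; Rab15 has 4 annotated starts, of which the outermost was taken. Rab32 lies at chr10:10558208-10558457 and Rab15 at chr12:76822525-76822774, both on the minus strand. Capitals mark matches on either strand to 6 searched motifs: CACGTG (bound by MITF, TFEB and MYC), TGANTCA (AP-1), GAGGAAGT (PU.1), the interferon-stimulated response element, CCGCCC (Sp1) and TATAAA (the TATA box).
Rab32: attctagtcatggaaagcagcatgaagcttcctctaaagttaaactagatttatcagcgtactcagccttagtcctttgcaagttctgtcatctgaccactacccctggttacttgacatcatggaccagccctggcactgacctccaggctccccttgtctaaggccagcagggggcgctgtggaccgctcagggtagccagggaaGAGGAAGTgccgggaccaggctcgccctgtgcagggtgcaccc
Rab15: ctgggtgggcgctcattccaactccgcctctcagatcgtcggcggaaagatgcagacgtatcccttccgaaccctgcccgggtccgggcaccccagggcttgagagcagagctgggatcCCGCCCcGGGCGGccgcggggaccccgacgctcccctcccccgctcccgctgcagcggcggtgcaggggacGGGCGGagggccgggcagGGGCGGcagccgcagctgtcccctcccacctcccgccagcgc
The Rab32 window held 1 match to GAGGAAGT, starting 43 bases before the transcription start, a motif found in 2.44% of 32851 windows of the same length. The Rab15 window held 4 matches to CCGCCC, a motif with any match in 32.7% of windows. G and C made up 75.2% of the Rab15 window and 55.6% of the Rab32 window, beside a median of 52.4% over all windows. No share was computed for 4 matches or for windows of like G and C content. The MITF, AP-1, interferon-response and TATA motifs, found in 6.02%, 6.75%, 2.98% and 12.4% of windows, were in neither window. A match is a description of letters and not a binding site, and the motifs were chosen with the ratios known.

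The Rab32 signal was 8784 on the control array and 20835 under RCCS. This is a log2 ratio of 1.06 (0.66 to 1.46), or 2.09-fold higher on the RCCS array, from 1 probe. Its ratio stayed at or above 1.02 in every alternative processing tried, of which those of filter, probe summary and membership could not move it. The close relatives of Rab32 did not share its direction at that size. Rab29, listed in the files under its older name Rab7l1 and known from Golgi and lysosome maintenance, went from 2553 to 3705, a log2 ratio of 0.35 (-0.05 to 0.75). Rab38, which pairs with Rab32 in melanosome formation, was dim (51.7 and 18.2) and cleared background in the control cells alone. Against the lowest signal called well above background on the RCCS array, 21.2, the bound for Rab38 was 2.77-fold lower there. That bound leaves out spot error, and the log2 ratio of the Rab38 probe was -1.69 ± 0.99 (95% half-width). The 3 relatives thus showed 1 gene higher, 1 under 2-fold and 1 lower near the detection limit. The known exchange factor of Rab32 and Rab38 is BLOC-3, a complex of Hps1 and Hps4. Hps1 had a log2 ratio of -0.46 and Hps4 of 0.15. Ankrd27 (VARP), which binds Rab32 and Rab38 and activates Rab21, stood at -0.33.

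The Rab15 signal was 611 on the control array and 147 under RCCS. This is a log2 ratio of -2.24 (-2.65 to -1.83), or 4.72-fold lower on the RCCS array, from 1 probe. Its ratio lay between -2.26 and -1.88 in the alternatives, of which those of filter, probe summary and membership could not move it. Among the other recycling endosome Rabs none passed 2-fold, and they lay on both sides of 0. Rab11a, the main GTPase of the recycling endosome, went from 3054 to 4925, a log2 ratio of 0.50 (0.27 to 0.74), with 3 probes at 0.34 to 0.74. Its close copy Rab11b went from 6866 to 6401, a log2 ratio of -0.29. Rab14, which moves cargo between Golgi and endosomes, went from 1907 to 2862 at a log2 ratio of 0.40 (0.16 to 0.64), and its 3 probes spread from 0.11 to 0.72. Rab11a and Rab14 were thus higher on the RCCS array on every measured probe, with gene means under 1.5-fold. The probe of lowest signal of each was past 1.5-fold (276 and 524 for Rab11a, 96.6 and 181 for Rab14). Rab4a, of fast recycling from early endosomes, went from 271 to 378 at a log2 ratio of 0.29, and Rab4b from 3766 to 3678 at -0.22. Rab35, which acts in recycling at the plasma membrane, stood at -0.24 (11418 and 11012). Rab25, an epithelial relative of Rab11, was dim (55.2 and 36.4) and stood at -0.79 (-1.39 to -0.18). The group median was -0.23 over 8 genes, 0.10 below the median of all genes.

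**Figure D2:**
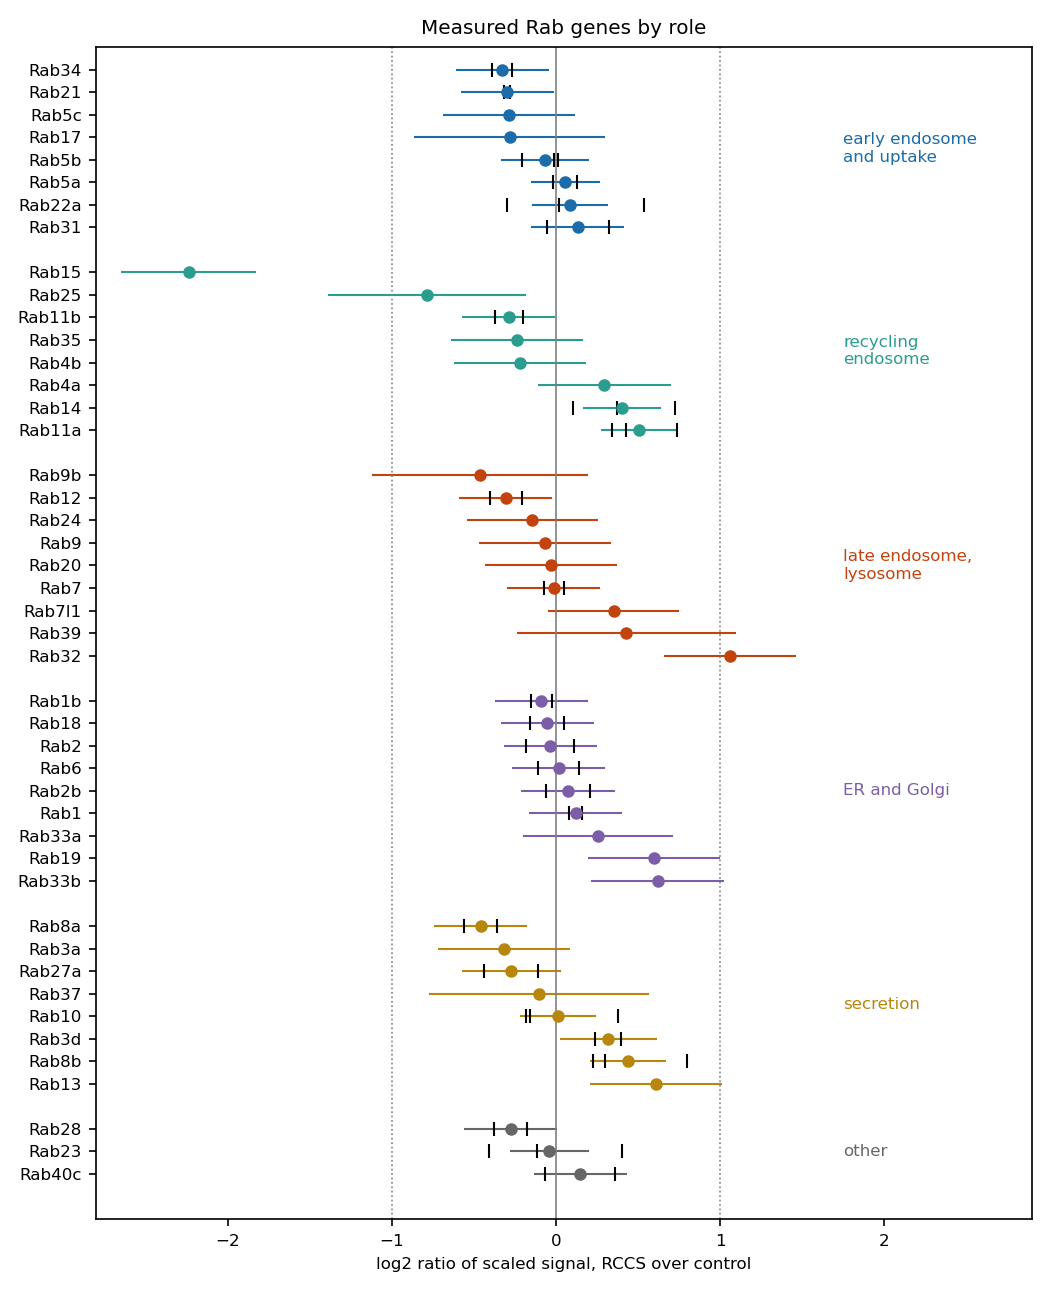
Log2 ratio (RCCS over control) of the 45 measured Rab genes, grouped by role; points are gene means, bars the 95% interval from the assigned spot error, black ticks the single probes of genes with several, and dotted lines mark 2-fold. Rab15 at -2.24 and Rab32 at 1.06 are the points outside the dotted lines, and Rab25 at -0.79 comes nearest to them.

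The early endosome and uptake group held the narrowest of the endosomal values. All 8 genes were measured, from -0.33 to 0.13, with a median of -0.18 and 0 genes past 2-fold. Rab5, the master GTPase of early endosomes, has 3 genes. Rab5a went from 2554 to 3022 at a log2 ratio of 0.06 (-0.15 to 0.27), Rab5b from 85.5 to 92.7 at -0.07 and Rab5c from 7843 to 7313 at -0.29. No Rab5 gene differed between the arrays beyond its interval in the main scaling, while with spike-in scaling Rab5a did, at 0.37. A Rab5a probe was printed 10 times on each array and gives a measured spread: its spots ran from 2970 to 3244 (control) and from 3601 to 4041 (RCCS), and the spot log2 ratios had a mean of 0.13 ± 0.03 (SD, 10 spots). All 10 ratios lay above 0, and their spread was smaller than the assigned error. Rab34, of macropinocytosis, stood at -0.33 (6618 and 5995), Rab21, of endosomes and integrin traffic, at -0.30 (3916 and 3624), and the dim, epithelial Rab17 at -0.28 (47.2 and 44.1). Rab31, which links the Golgi to endosomes, was at 0.13 (3764 and 4695). Rab22a, of early endosomes and phagosomes, averaged 0.09 (794 and 958) over 3 probes that spread from -0.30 to 0.53, so its direction depended on the probe.

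Rab7, the GTPase that drives fusion with lysosomes and that osteoclasts need at the ruffled border, was nearly equal on the arrays. It went from 14385 to 16220, a log2 ratio of -0.01 (-0.30 to 0.27), with probes at -0.07 and 0.05. Over the alternatives the Rab7 ratio ran from -0.07 to 0.30, highest with spike-in scaling. Rab20, which acts in phagosome maturation, stood at -0.03 (1603 and 1787). Rab9, which returns mannose 6-phosphate receptors to the Golgi, was at -0.07 (2113 and 2294), and Rab24, linked to autophagy, at -0.14 (7889 and 8120). These 4 genes of the route to the lysosome all lay within 0.14 of equal signal in the main scaling. Rab12, which sends receptors to lysosomes for degradation, was at -0.31 (1340 and 1232; -0.59 to -0.02). Rab39, a phagosome Rab, and Rab9b were dim and stood at 0.43 (32.3 and 49.5) and -0.46 (40.4 and 33.3), with intervals that reached across 0. With Rab32 and Rab29 this made 9 measured genes of 11, with a median of -0.03. Rab38 had the bound given above, and Rab39b cleared background on neither array.

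Of the Rab genes of the endoplasmic reticulum and Golgi, 6 were nearly equal on the arrays. Rab1, named Rab1a at present, and Rab1b, both of transport from the reticulum to the Golgi, stood at 0.12 (6089 and 7523) and -0.09 (19599 and 20937). Rab2 (now Rab2a) and Rab2b, which act between the reticulum and the Golgi, were at -0.03 (7263 and 8065) and 0.07 (572 and 685). Rab6 (now Rab6a), of traffic at and from the Golgi, was at 0.02 (4050 and 4662), and Rab18, of the reticulum and lipid droplets, at -0.05 (5655 and 6199). In the main scaling none of these 6 genes differed between the arrays beyond its interval. With spike-in scaling Rab1, Rab2b and Rab6 did, at 0.43, 0.38 and 0.33. Rab1 also did with quantile normalization (0.32), loess (0.34) and normexp with quantile normalization (0.31). Higher ratios came from genes with 1 probe and lower signal. Rab33b, a Golgi Rab that binds the autophagy protein Atg16l1, went from 238 to 416 at a log2 ratio of 0.62 (0.21 to 1.03), the highest Rab value after Rab32. Rab19, a little-studied Golgi Rab, went from 449 to 773 at 0.60 ± 0.40 (95% half-width). Rab33a was at 0.26 (74.6 and 102). The group median of 0.07 over 9 measured genes of 11 was the highest of the 6 role groups and 0.20 above the median of all genes. Rab6b cleared background on the RCCS array alone, on 1 probe (20.3 and 31.6). The log2 ratio of that probe was 0.45 ± 0.93 (95% half-width), an interval that reached across 0. The other Rab6b probe (5.71 and 4.97) cleared background on neither array, and Rab30 was above on neither.

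Among Rabs of secretion and exocytosis, 8 of 12 were measured, with a median of -0.05 and 0 past 2-fold. Rab13, which carries cargo to the cell surface and junctions, was highest, from 344 to 596 at a log2 ratio of 0.61 (0.20 to 1.01). Rab8b went from 1521 to 2349 at 0.44 (0.21 to 0.67), with 3 probes at 0.23 to 0.80. Rab8a, which like Rab8b brings vesicles from the Golgi to the plasma membrane, went the other way, from 7282 to 6029 at -0.46 (-0.74 to -0.18), with probes at -0.56 and -0.36. Rab3d, the Rab3 form found on secretory vesicles of osteoclasts, was at 0.32 (317 and 450; 0.02 to 0.61), and Rab3a, of synaptic vesicles, at -0.32 (913 and 834). Rab27a, of lysosome-related organelle secretion, was at -0.27 (191 and 180), and Rab37 was dim at -0.10 (34.0 and 36.0). Rab10, of basolateral and surface transport, averaged 0.01 (6267 and 7191) over 3 probes from -0.18 to 0.38. Rab3c was well above background on the control array alone (42.4 and 21.5). The log2 ratio of that dim probe was -1.17 ± 0.81 (95% half-width). Rab3b was above on the RCCS array alone, too dim to give a bound, and Rab26 and Rab27b were above on neither. In the remaining set, Rab28, found at cilia, was at -0.28 (2352 and 2208), Rab23, an inhibitor of hedgehog signalling, at -0.04 (304 and 337) with 3 probes from -0.41 to 0.40, and Rab40c, part of a ubiquitin ligase, at 0.15 (1106 and 1394). Rab36 and Rab40b were above background on neither array.

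**Figure D3:**
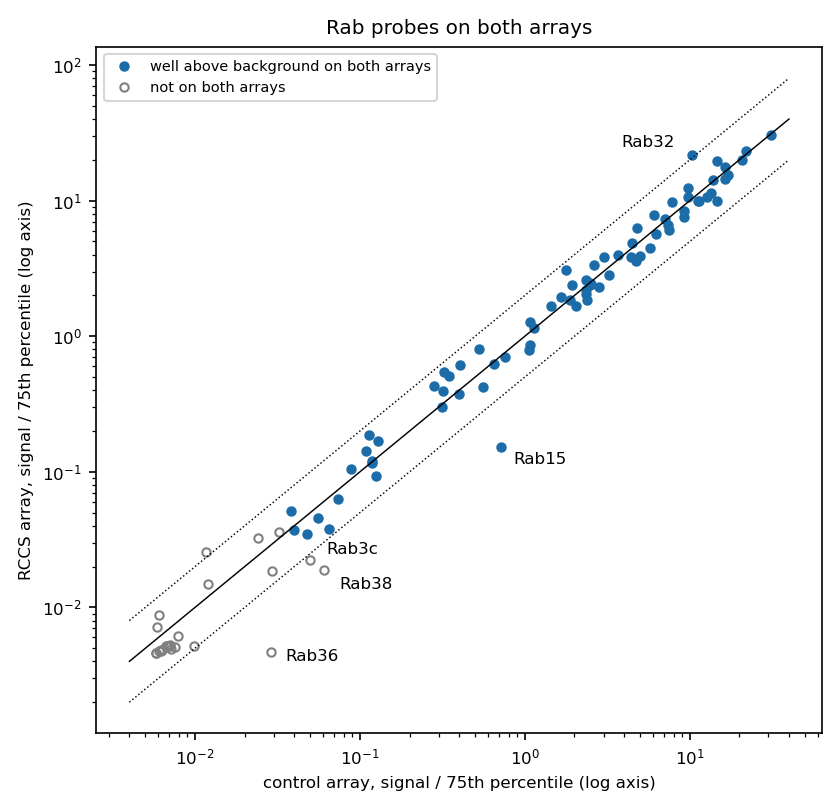
Signal of each of the 103 Rab probes on the control (x) and RCCS (y) array, each divided by its array's 75th percentile, on log axes; filled points were well above background on both arrays, the solid line marks equal values and the dotted lines 2-fold. Filled points hug the solid line, with Rab32 above and Rab15 below the dotted lines, while Rab38, Rab3c and Rab36 are dim open points.

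Close copies of 3 Rabs differed from each other beyond the spot error. The 45 measured genes form 11 pairs of copies with the same number, in 9 sets, and for 3 pairs the interval of the difference left out 0. Rab8b exceeded Rab8a by 0.90 ± 0.37 on the log2 scale (95% half-width), Rab11a exceeded Rab11b by 0.79 ± 0.37, and Rab3d exceeded Rab3a by 0.64 ± 0.50. A scaling factor cancels from such a difference, and over the alternatives these 3 lay between 0.76 and 1.36, between 0.63 and 0.79, and between 0.53 and 0.64. The other pairs differed by 0.11 to 0.51, within their intervals. Ratios of opposite sign were found in 8 of the 11 pairs, a count that rests on where 0 is set and was 3 with spike-in scaling. Spot error does not cover the choice of probe. Among 5091 genes with several measured probes, 1526 had probes of the same gene more than 0.5 apart. No share for other gene pairs was computed, so how common such differences are is not known. Whether probes of 1 copy also bind the other was not tested.

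Of 126 genes on the array that load, switch and read Rab proteins, 109 were measured; 4 were higher and 1 was lower by 2-fold or more, together 4.59% beside 7.66% of all measured genes, with a median of 0.09. With spike-in scaling 9.17% of them passed 2-fold beside 9.12% of all genes. The lipid anchor and recycling machinery had 8 of 8 genes measured and 0 past 2-fold. Its highest members were the Rab escort genes Chml, from 97.0 to 190 at a log2 ratio of 0.79, and Chm, from 371 to 676 at 0.68, each on 1 probe. The transferase subunits Rabggta and Rabggtb stood at -0.17 and -0.22, and Gdi2, a GDP dissociation inhibitor, at -0.11. Rabac1, a Golgi protein that binds prenylated Rabs, stood at 0.25. Both escort genes were thus higher on the RCCS array while both transferase subunits lay near the median of all genes.

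Rab3il1, an exchange factor for Rab8 proteins, was the exchange factor past 2-fold among 28 measured, or 3.57% beside 7.66% of all measured genes. It went from 310 to 901, a log2 ratio of 1.35 (2.55-fold higher), with 3 probes from 1.09 to 1.87. It was followed by Rin2, which activates Rab5, at 0.81 (1659 and 3316), Dennd2d at -0.79 (1491 and 983) and Dennd5a at 0.66. Its relative Rab3ip (Rabin8) stood at -0.40. Among 32 measured GTPase-activating proteins only Tbc1d16 passed 2-fold, or 3.1%. It was 2.53-fold higher (60.7 and 174) on 1 probe that was dim on the control array. Tbc1d16 lay under 2-fold with normexp, at 0.70 and 0.74. Tbc1d2, which acts on Rab7, stood just under 2-fold at 0.999 (252 and 573), with probes at 0.40 and 1.59, followed by Tbc1d2b at -0.77 and Tbc1d9b at 0.68. Tbc1d9 cleared background on the RCCS array alone, from 9.14 to 325, with a bound of 11.8-fold higher there. Rabgap1l was likewise above on the RCCS array alone, with a bound of 1.94-fold higher. Both bounds leave out spot error.

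Among 41 measured effectors, 2 passed 2-fold upward and 1 downward, together 7.32% beside 7.66% of all measured genes. Plekhm1, which links Rab7 to lysosome fusion and to the osteoclast ruffled border, went from 2228 to 5219 at a log2 ratio of 1.04, where Rab7 itself stood at -0.01. Rilpl1, of the same protein family as the Rab7 effector Rilp, was 2.30-fold higher (162 and 423), with probes at 1.19 and 1.22, and lay under 2-fold with normexp, at 0.89 in both normalizations. Rilp stood at 0.57 (131 and 221), and Plekhm2, a lysosome transport adaptor, at 0.89. Osbpl1a, another effector of the list, went the other way at -0.88 (548 and 338), with 3 probes from -1.26 to -0.57. Of the 41 effectors, 21 lay above 0 and 20 below, beside 6123 and 9900 of all 16023 measured genes. Rph3a, a Rab3 effector of secretory vesicles, was dim and stood at -1.60 (78.2 and 29.4). Kif20a, a mitotic kinesin named for binding Rab6, was at -0.90 (13544 and 8237). Sytl3, a Rab27 effector, was above background on the RCCS array alone (19.5 and 67.3). Its bound, which leaves out spot error, was 2.45-fold higher there.

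**Figure D4:**
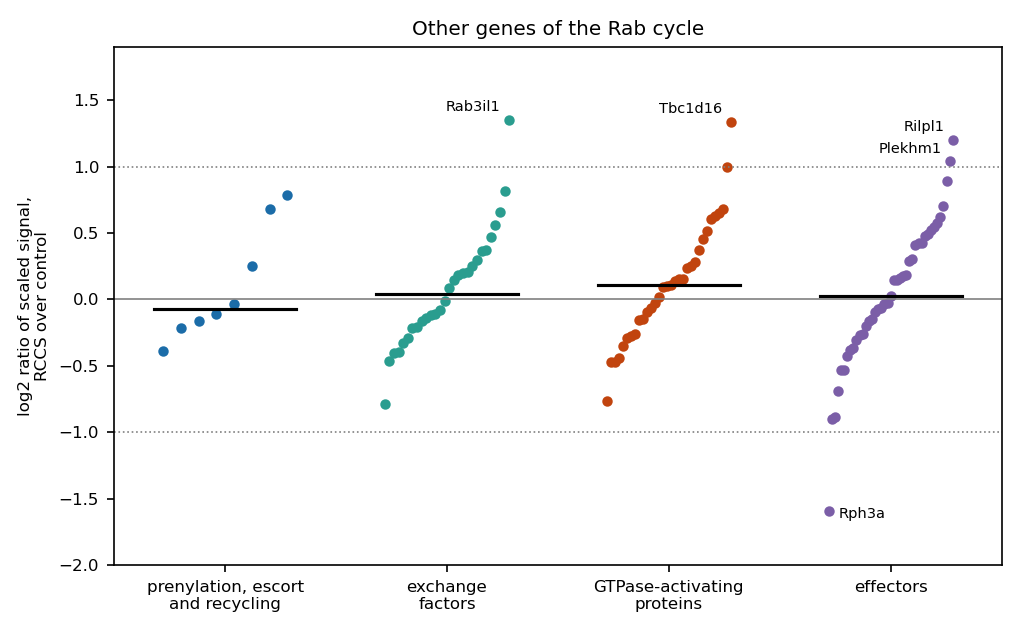
Log2 ratio (RCCS over control) of the 109 measured genes that act on or with Rab proteins, 1 point per gene in 4 lists, with a bar at each list's median and dotted lines at 2-fold. Rab3il1, Tbc1d16, Rilpl1 and Plekhm1 lie above the upper dotted line and Rph3a below the lower one, while the medians lie between -0.07 and 0.11.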

How the data were processed

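The values are spot intensities that the authors deposited as scanner output of Agilent Feature Extraction 9.5.3.1; per the file headers the processed signal is background-subtracted and detrended over the slide surface, with no scaling between arrays. Both arrays lay on 1 slide and were scanned together. The authors also deposited a ratio per probe, which set against the scanner values is the processed signal divided by 849 and 964; it served as an alternative.

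Spots flagged as outliers (117 and 120) were left out, repeated spots averaged, and log2 ratios taken after scaling at the 75th percentile. A probe was measured with at least 50% of its spots well above background on both arrays; 0 spots were saturated. Accessions named 22950 probes (84 of 103 Rab probes) through the GRCm38.p6 gene table, and other probes kept the file's name. Rab genes kept the file's name: Rab7b and Rab43, listed under older names, entered an alternative only. Analysis used Python 3.11.15, and R 4.3.3 with limma 3.58.1 for the alternatives; the code was tested on simulated data. With 1 array per condition no test was possible.

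For a gene above background on 1 array, a bound is a fold against the other array. The value taken there is the higher of its own signal and the lowest signal well above background. This bound leaves out spot error and is not a minimum. Rab3c, at 21.5, exceeded the lowest such RCCS signal of 21.2 and was not flagged. The members, role groups and lists were chosen with earlier results of these data known. Every Rab gene is given. Of the other lists, genes past 2-fold and up to 4 with the largest ratios are named. Hps1, Hps4, Ankrd27, Rab3ip, Rabgap1l, Rilp, Plekhm2, Osbpl1a, Gdi2, Rabggta and Rabggtb were added once their values had been seen. Of the genes that rule names, 1 is not reported here. Alternatives tried were other scalings, normalizations, background correction, filters, probe summaries, membership and a 1.5-fold threshold. Slide as a block could not be fitted, as both arrays share the slide. Precision is limited by having 2 arrays, and the median 95% half-width of a Rab log2 ratio was 0.29.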

Additional observations from a re-analysis of the deposited data

How the results depend on the processing

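Rab32 was the Rab gene at least 2-fold higher and Rab15 was at least 2-fold lower in all 13 alternatives at that threshold. Each rests on 1 probe, so alternatives of filter, probe summary or membership could not move its ratio. Without a filter on dim probes Rab36 and Rab38 joined, giving 3 lower. In that setting 7.27% of Rab genes passed 2-fold, beside 11.9% of all genes. Rab36 then averaged 2 probes not well above background on either array, at -2.64 and 0.54. At 1.5-fold, 4 Rab genes were higher and 2 lower (Rab13, Rab19, Rab33b and Rab25 joining), beside 9.74% and 14.9% of all genes. The sign of the Rab median depends on the scaling: it was 0.10 with the 75th percentile of measured probes, 0.27 with spike-in scaling, 0.10 with quantile normalization, 0.16 with loess and 0.12 with normexp and quantile normalization. Relative to all genes the Rab median was above 0 in all alternatives, from 0.055 with the brightest probe to 0.17 with loess. A scaling factor cancels from this difference, so the alternatives that only rescale the arrays could not change its sign. Spike-in scaling, which moves all ratios up by 0.31, put the role medians at 0.13 (early endosome), 0.080 (recycling), 0.28 (late endosome and lysosome), 0.38 (reticulum and Golgi), 0.26 (secretion) and 0.27 (other). The recycling median was -0.030 with quantile normalization, -0.0072 with loess and -0.017 with normexp and quantile normalization; the reticulum and Golgi median was 0.22 with loess, the early endosome median 0.0011 at a signal of at least 100, and the median of the other role group -0.49 without a filter.

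For the other Rab cycle genes the median was 0.23 with the 75th percentile of measured probes, 0.40 with spike-ins, 0.15 with loess, 0.036 with normexp at the 75th percentile, 0.14 at a signal of at least 100 and 0.15 with the brightest probe. Their genes at least 2-fold higher numbered 9 with spike-ins and 2 in both normexp alternatives, where Tbc1d16 and Rilpl1 lost their calls, and those lower 0 in both normexp alternatives, at a signal of at least 100 and without a filter, where Rph3a drops out or comes nearer to 0. At 1.5-fold, 16 were higher (14.7%, beside 9.74% of all genes) and 6 lower (5.50%, beside 14.9%). Of all genes called, 82.1% were higher with spike-ins, 66.7% with the 75th percentile of measured probes, 62.5% with loess and 62.6% with normexp and quantile normalization, in place of 50.7%. All genes called at least 2-fold fell from 1227 to 710 and 663 under normexp and came to 3412 without a filter. Both normexp alternatives added an offset of 50 to each signal, which draws the ratios of dim genes toward equal signal. The part of this offset and the cause of the other shifts were not tested. No paired analysis was possible because each group has 1 array. Dim genes (signals under 100, such as Rab25, Rab38 and Rab3c) are limited by background.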

Other observations

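Rab7b and Rab43 stand in the scanner files under older names and so fall outside the name rule. Rab7b, a Rab of late endosomes and the Golgi in myeloid cells, went from 2542 to 1895, a log2 ratio of -0.61 on 1 probe, while Rab7 stood at -0.01. Rab43, a Golgi Rab, was at 0.21, with probes from -0.03 to 0.49. Among Rab genes with several measured probes, 25 in all, the probes of 5 lay more than 0.5 apart (Rab22a, Rab23, Rab14, Rab8b and Rab10) and those of 0 more than 1 apart, and the median spread was 0.22 beside 0.30 over 5091 genes with several probes.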
